A study of Sus scrofa with 180 samples.

Results

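Myoglobin (MB) and the alpha chain of haemoglobin (HBA2) were measured by 4 probes of the custom pig array, 1 for MB and 3 for HBA2, of 15198 probes in all. The members were every probe that the study's list of probes and genes names MB or HBA2. That list holds only probes which the study called as differing between the muscles, so the muscle difference of these 4 probes is given as a description and supports nothing. The study had also removed its least variable probes before that step, so the spread of the members across pigs was not free of the choice either. The arrays compared the Longissimus (LM), the long muscle of the back, with the Semimembranosus (SM), a ham muscle, in 90 pigs, with 1 single-colour array of total RNA for each muscle of each pig. The pigs came from half-sib families of an intercross between the terminal sire lines FH016, of Pietrain type, and FH019, a synthetic line, and were females and castrated males slaughtered commercially. No treatment was given, and the labels state neither sex nor age. The study reports an average age and weight at slaughter, and all its pigs were homozygous wild type at the HAL and RN loci. The muscle was sampled with a trocar soon after bleeding, so blood left in the vessels was part of each sample. In such whole tissue, fewer cells of a type and less RNA per cell cannot be told apart.

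Myoglobin is a haem protein of the muscle fibre, which stores oxygen and eases its passage from the capillary to the mitochondria. It is most abundant in slow and oxidative fibres and gives red meat much of its colour. Haemoglobin carries oxygen in red blood cells, and its alpha and beta chains are made in the erythroid cells of the marrow. Young red cells in the circulation still hold globin mRNA, whereas the nucleus is lost. MB is therefore taken here as a transcript of the fibre and HBA2 as one carried by the blood. That reading is background, and the source of the HBA2 signal was not tested.

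The sequences of the HBA2 probes are shown because the 3 probes do not read the gene alike. Each probe has 60 bases. CJ016767.1_366 and CF364593.1_620 differ at 1 base, C21A, counted from the 5′ end with the base of CJ016767.1_366 first, and that base is in capitals. Both hold 9 C in their first 15 bases and the letters AATAAA, those of the polyadenylation signal, from base 31 on. BP451506.1_395 holds 3 C in its first 15 bases, and its first reading frame has 0 stop codons. The MB probe holds 4 C in its first 15 bases. Bases 1 to 30 are printed for the first 3 probes and all 60 bases for the last, from 5′ to 3′ as in the scanner's output.
MB BM190067.1_915: aagctgtaaccctaaactccagccataact
HBA2 CJ016767.1_366: cccccttgcaccctgacctcCtgatcgttg
HBA2 CF364593.1_620: cccccttgcaccctgacctcAtgatcgttg
HBA2 BP451506.1_395: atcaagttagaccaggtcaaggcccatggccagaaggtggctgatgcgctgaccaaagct
No other probe of the array shared a run of 20 bases with any of the 4 on either strand. The content of C at the start of a probe matters below, because an index of C-rich probes (the mean of 213 probes with 8 or more C in the first 15 bases minus that of 3955 probes with 2 or fewer, members left out) differed between the muscles. It was -0.37 ± 0.34 (SD, n = 90) on the log2 scale in LM and 0.38 ± 0.30 (SD, n = 90) in SM.

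All 4 probes were well above background on all 180 arrays. The processed signal of MB, the brightness of the spot after background subtraction and before any scaling between arrays, was 87893 in the lowest LM array, 146868 in the median one and 304736 in the highest. In SM the lowest MB signal was 82467.5, the median 145216 and the highest 243278. The signal of MB before scaling was thus nearly the same in both muscles. For HBA2 CJ016767.1_366, the lowest, median and highest signals were 2291, 6157 and 391752 in LM and 4660.4, 11111 and 40252 in SM. For CF364593.1_620 they were 1079, 3256 and 311038 in LM and 1771, 5334 and 26256 in SM. The 2 near-identical HBA2 probes had higher medians in SM, but their highest spots were in LM. For BP451506.1_395 the same signals were 59.4, 276 and 780.2 in LM and 63.9, 310.2 and 1937 in SM. Signals of different probes are not on 1 scale and were not compared with each other.

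After scaling, the level is the log2 signal minus the median of the array, with non-uniform, saturated and outlying spots missing. MB was 8.11 ± 0.28 (SD, n = 83) in LM, from 7.47 to 8.82 with a median of 8.12. In SM it was 8.44 ± 0.28 (SD, n = 90), from 7.54 to 8.91 with a median of 8.46. Most SM arrays were above the LM median, and the ranges of the muscles overlapped. HBA2 CJ016767.1_366 was 3.44 ± 0.54 (SD, n = 79) in LM, from 2.41 to 4.86 with a median of 3.49, and 4.72 ± 0.60 (SD, n = 90) in SM, from 3.43 to 6.35 with a median of 4.68. HBA2 CF364593.1_620 was 2.55 ± 0.53 (SD, n = 77) in LM, from 1.30 to 3.86 with a median of 2.54, and 3.67 ± 0.64 (SD, n = 89) in SM, from 2.10 to 5.24 with a median of 3.65. HBA2 BP451506.1_395 was -0.91 ± 0.65 (SD, n = 90) in LM, from -2.91 to 0.46 with a median of -0.93, and -0.45 ± 0.72 (SD, n = 89) in SM, from -2.70 to 1.22 with a median of -0.49. The muscles overlapped for each HBA2 probe, and most for BP451506.1_395.

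**Figure D1:**
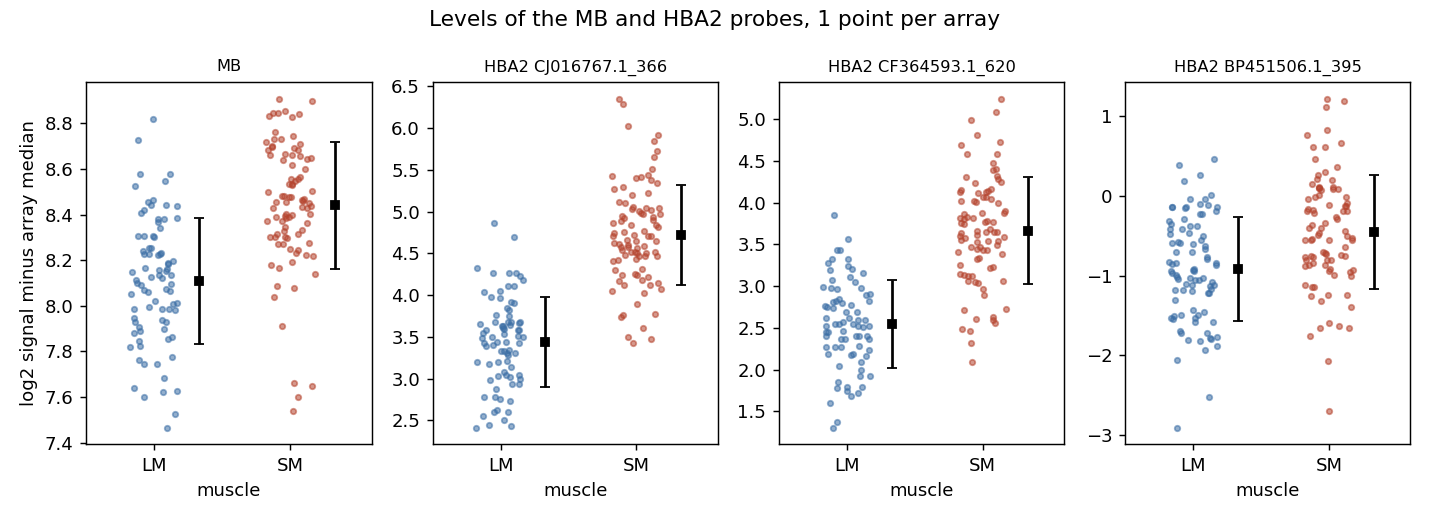
Level of each member probe (log2 signal minus the array median, y axis, with a scale of its own for each probe) in LM and SM. Each point is 1 array and the black square with its bar is the mean ± SD; MB is 8.11 in LM and 8.44 in SM, and the muscles overlap for every probe.

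HBA2 levels varied more across the arrays of a muscle than MB levels. The highest MB level was 2.55 times the lowest in LM and 2.58 times in SM, whereas these ratios were 5.46 and 7.57 for HBA2 CJ016767.1_366, 5.86 and 8.87 for CF364593.1_620 and 10.4 and 15.1 for BP451506.1_395. Over the 10987 probes kept, the median SD was 0.28 in LM and 0.29 in SM. The SD of MB was above that of 48.5% of the probes in LM and 44.9% in SM. The SD of the HBA2 probes was above that of 90.7% to 95.5% of the probes in LM and 94.8% to 97.9% in SM. These ranks are a description, since only probes past the study's removal of the least variable ones could be named. How much of this spread is measurement error was not tested, since each muscle of a pig had 1 array. The C-rich index had an r with CJ016767.1_366 of 0.65 in LM and 0.83 in SM, and with CF364593.1_620 of 0.16 and 0.68. With BP451506.1_395 its r was -0.084 and 0.33, and with MB 0.15 and 0.20. The part of the index in the spread was not tested.

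All 4 probes were higher in SM after scaling. In limma's fit across all probes, the log2 difference of LM minus SM was -0.33 (SE 0.042) for MB, which is a ratio of SM over LM of 1.26, with an adjusted p of 8.78e-13. This fit took the arrays as unpaired. MB was higher in SM in 74 of the 83 pigs with both values. The difference was -1.28 (SE 0.087) for HBA2 CJ016767.1_366, a ratio of 2.43 with SM higher in 78 of 79 pigs, and -1.12 (SE 0.091) for CF364593.1_620, a ratio of 2.17 with SM higher in 71 of 76 pigs. It was -0.46 (SE 0.10) for BP451506.1_395, a ratio of 1.38 with SM higher in 57 of 89 pigs. The adjusted p was 1.60e-31, 1.05e-24 and 1.65e-05 for these HBA2 probes in the same order. Of the 10987 probes tested, 83.5% were called and 47.7% were called as higher in SM, and nothing is read from the members against this background because the study's own contrast chose them.

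These differences had other sizes under other scalings and with the C-rich index in the model. The median signal of an array was lower in SM, with a median over arrays of 169.6 against 216 in LM, and subtracting it moved every probe towards SM. With no scaling between arrays, an alternative chosen after the data were seen, MB differed by -0.035 (adjusted p = 0.52) and HBA2 BP451506.1_395 by -0.13 (adjusted p = 0.26), so neither was called. The signal of MB as read was higher in SM in 44 of 90 pigs. The C-rich HBA2 probes still differed without scaling, by -0.95 for CJ016767.1_366 and -0.81 for CF364593.1_620. When the C-rich index entered the model as a covariate, the difference of CJ016767.1_366 was -0.16 (adjusted p = 0.13) and that of BP451506.1_395 -0.27 (adjusted p = 0.11), and neither was called, whereas CF364593.1_620 differed by -0.36 (adjusted p = 0.013) and MB by -0.22 (adjusted p = 0.0021). With the pig as a block beside the index, CJ016767.1_366 differed by -0.32 (adjusted p = 0.010) and BP451506.1_395 by -0.55 (adjusted p = 0.014), and both were called. Since the index itself differed between LM and SM, base composition and muscle cannot be told apart here. No slide and no scan day held arrays of both muscles, so a fixed effect of these and the muscle cannot be told apart.

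On 11 LM arrays from 6 slides, the spots of both C-rich HBA2 probes were marked as not uniform by the scanner's software, and these spots were bright. CJ016767.1_366 read from 13533 to 391752 there, with a median of 68362, against a median of 5794 and a highest value of 16417 on the other LM arrays. On the same 11 arrays BP451506.1_395 was uniform and read from 114 to 461, with a median of 270.4 against 277 on the others. The median of the third HBA2 probe was thus no higher on the arrays where the C-rich pair was brightest. The 6 LM spots of MB that were not uniform were all on these 11 arrays, with a median of 276607 against 144637 elsewhere. The slide with the most such arrays held 4 of them. In SM 0 spots of the 4 probes were marked as not uniform. These spots were missing in all levels above.

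**Figure D2:**
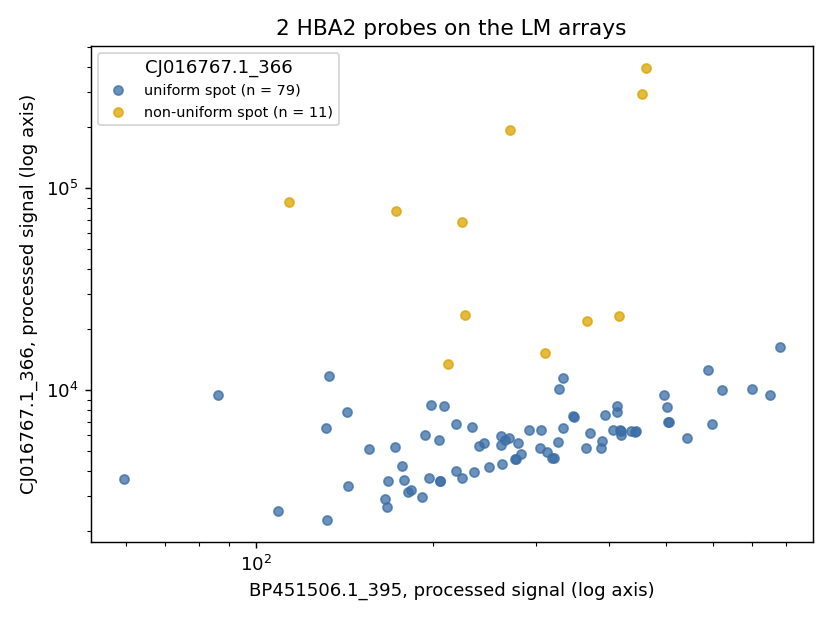
Processed signal of HBA2 CJ016767.1_366 (y axis, log scale) against HBA2 BP451506.1_395 (x axis, log scale) on the 90 LM arrays, 1 point per array. The 11 yellow points are spots marked as not uniform; they read 13533 or more for CJ016767.1_366 and lie within the range of the other arrays on the x axis.

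The 3 HBA2 probes rose and fell together across pigs, but not equally closely. In LM, Pearson's r was 0.83 for the pair that differs at 1 base (n = 77, Spearman's rho 0.82), 0.87 for CF364593.1_620 with BP451506.1_395 (n = 77, rho 0.86) and 0.49 for CJ016767.1_366 with BP451506.1_395 (n = 79, rho 0.52). In SM the same 3 values were 0.95 (n = 89, rho 0.95), 0.87 (n = 89, rho 0.85) and 0.75 (n = 89, rho 0.73). With 100000 permutations of the pigs, p for r was 1e-05, the smallest they can give, for these 6 pairs, other than 2e-05 for the weakest, and the adjusted p over the 12 relations among member probes was at most 3.43e-05. With slide means subtracted, r was 0.87, 0.90 and 0.62 in LM and 0.94, 0.90 and 0.77 in SM, in the same order of pairs. With the 2 pigs farthest from the median left out, the 6 values of r lay between 0.52 and 0.95. With the C-rich index regressed out, r of CJ016767.1_366 with BP451506.1_395 was 0.77 in LM and 0.92 in SM. The index itself had an r of 0.65 in LM and 0.83 in SM with CJ016767.1_366, 0.16 and 0.68 with CF364593.1_620 and -0.084 and 0.33 with BP451506.1_395. When the non-uniform spots were kept, r of CJ016767.1_366 with BP451506.1_395 in LM was 0.13 (adjusted p = 0.24).

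MB and HBA2 were related across pigs in SM. In SM, r of MB was 0.41 with HBA2 CJ016767.1_366 (n = 90, rho 0.46), 0.44 with CF364593.1_620 (n = 89, rho 0.45) and 0.49 with BP451506.1_395 (n = 89, rho 0.48), with a permutation p of 7e-05, 3e-05 and 1e-05 and an adjusted p of at most 9.33e-05. With slide means subtracted these were 0.37, 0.39 and 0.45, with an adjusted p of at most 0.0013, and without the 2 pigs farthest from the median of MB 0.41, 0.45 and 0.47. In LM, r of MB with the same probes was 0.085 (n = 78, rho 0.070), 0.17 (n = 76, rho 0.15) and 0.15 (n = 83, rho 0.15), with an adjusted permutation p of 0.46, 0.18 and 0.18. With slide means subtracted it was 0.088, 0.21 and 0.22, with an adjusted p of at least 0.12. A relation in LM was thus not detected, and the difference in r between the muscles did not pass a test that exchanged the 2 muscles within pigs, with an adjusted p over 6 pairs of 0.31, 0.50 and 0.24. Under quantile normalization the relation in SM was 0.068, 0.15 and 0.26, of which only the last passed (adjusted p = 0.026). When the non-uniform spots were kept, r in LM was 0.55 for either C-rich HBA2 probe and 0.00065 for BP451506.1_395.

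**Figure D3:**
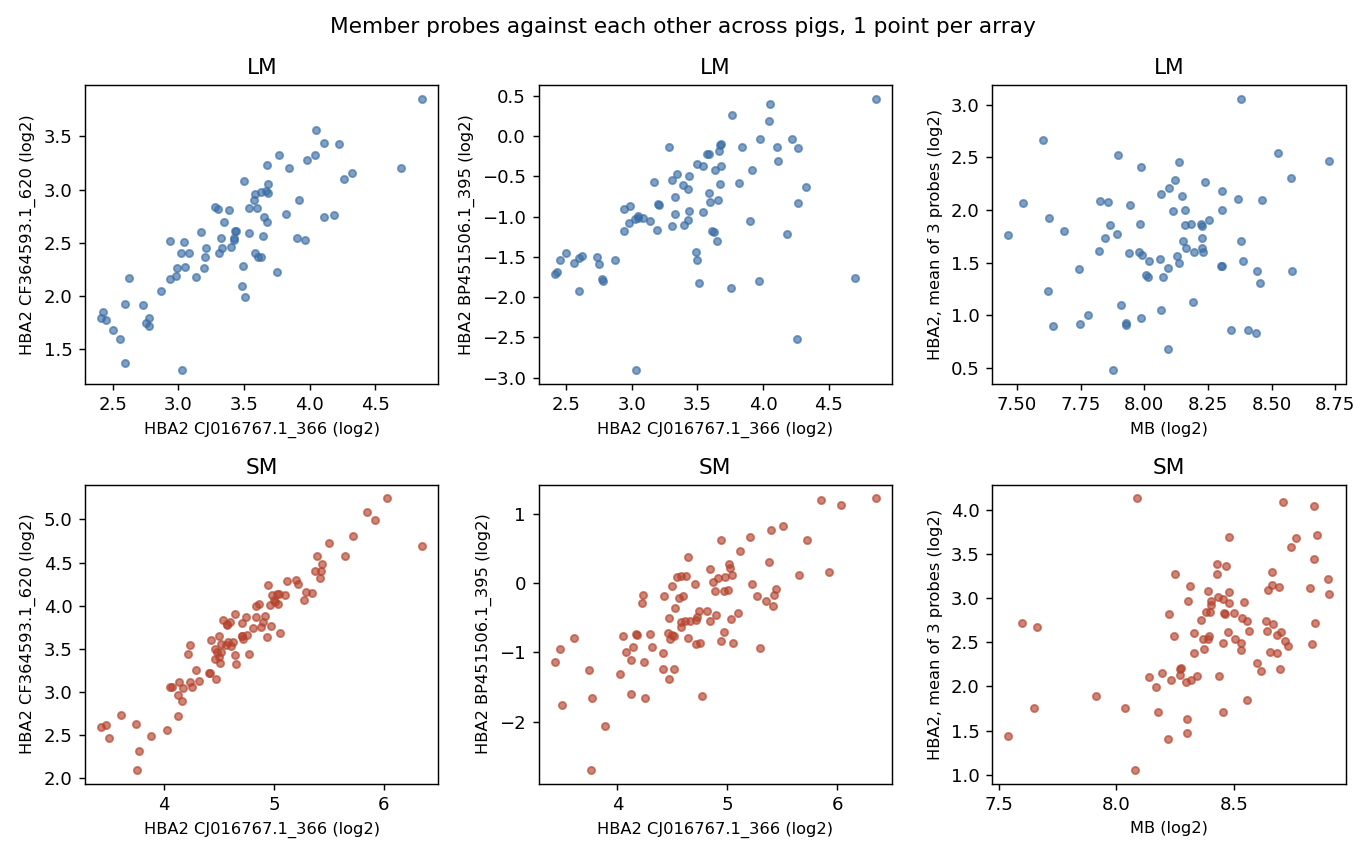
Member probes against each other across pigs in LM (top) and SM (bottom), as log2 signal minus the array median on both axes, 1 point per array. The 2 near-identical HBA2 probes lie along a line (r of 0.83 in LM and 0.95 in SM), and MB against the mean of the HBA2 probes slopes upwards in SM (r of 0.47) with a wide scatter.

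The level in one muscle of a pig said little about that in the other. MB in LM and in SM had an r of 0.27 (n = 83, rho 0.26), with a permutation p of 0.016 and an adjusted p over 5 relations of 0.078. With slide means subtracted MB had an r of 0.23 (adjusted p = 0.32), and without the 2 pigs farthest from the median 0.30 (adjusted p = 0.035). For HBA2, r was 0.17 for CJ016767.1_366 (n = 79, rho 0.15), 0.15 for CF364593.1_620 (n = 76, rho 0.15), 0.053 for BP451506.1_395 (n = 89, rho 0.066) and 0.12 for the mean of the 3 probes (n = 76, rho 0.097), with an adjusted p of 0.33, 0.33, 0.62 and 0.37. With slide means subtracted these were 0.034, 0.040, 0.15 and 0.062. A relation between the HBA2 levels of the 2 muscles of a pig was thus not detected. Within a muscle, by contrast, a second probe from the source sequence of the MB probe, BM190067.1_1060, which has no name here, had an r with MB of 0.86 in LM (n = 82) and 0.85 in SM (n = 90). It was chosen after its values were seen, and its own r between the muscles was 0.25.

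**Figure D4:**
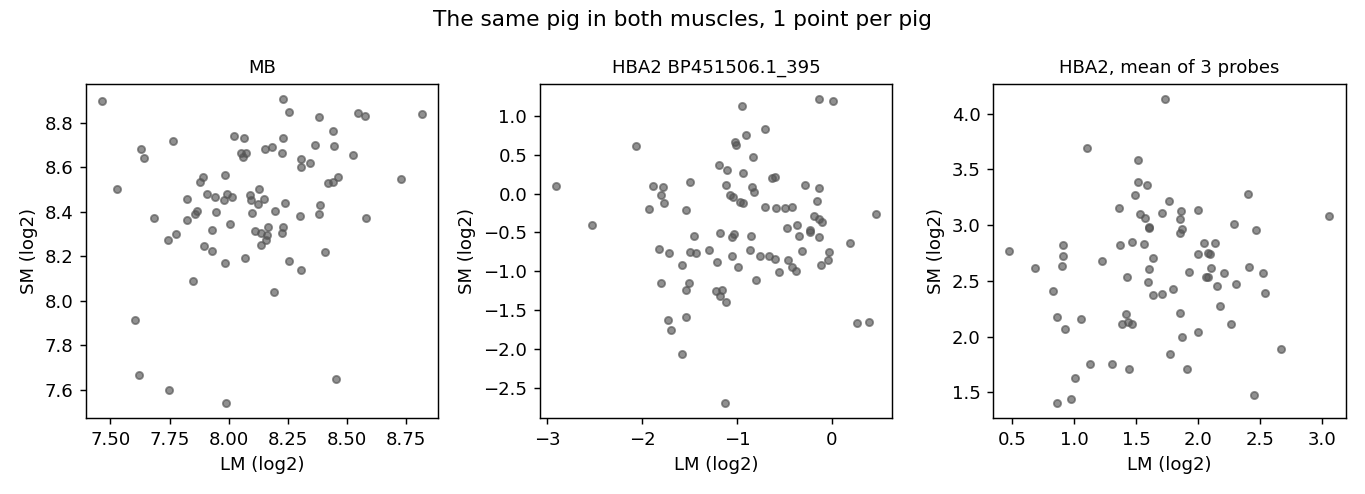
Level in SM (y axis) against level in LM (x axis) of the same pig, in log2 signal minus the array median, for MB, HBA2 BP451506.1_395 and the mean of the 3 HBA2 probes, 1 point per pig. The points scatter widely, with r of 0.27, 0.053 and 0.12.

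Transcripts of the slow fibre and of the respiratory chain rose with MB from pig to pig. The slope of every probe on the MB level was fitted in each muscle with the slide as a factor, and is the log2 change of a probe for a change of 1 in the log2 level of MB. In SM, 692 of 10983 probes rose with MB (6.30%) and 177 fell (1.61%), and in LM 80 rose (0.728%) and 19 fell (0.173%), members left out. Of the 99 probes called in LM, 72 were also called in SM (72.7% of those in LM and 8.29% of those in SM), all with the same sign. Of 9 probes for slow fibre genes, 4 rose with MB in SM and 3 in LM, with a median slope over the 9 of 0.37 and 0.68, against 0.027 and -0.013 over all probes. In SM they were MYL6B, a slow myosin light chain (slope 1.33, SE 0.22), MYL2, the regulatory light chain of slow myosin (0.94, SE 0.16), TNNI1, the slow skeletal troponin I (0.81, SE 0.13), and ATP2A2, the calcium pump of slow fibres (0.60, SE 0.15). In LM they were PLN, an inhibitor of that pump (0.77, SE 0.20), ATP2A2 (0.70, SE 0.15) and TNNI1 (0.68, SE 0.13). TNNI1 and ATP2A2 were thus called in both muscles. For the 11 probes of fast glycolytic fibre genes limma gave 0 calls with MB in either muscle, with an unadjusted p under 0.05 for 4 in each.

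Of 38 probes for nuclear genes of the respiratory chain and ATP synthase, 26 rose with MB in SM and 3 in LM, and 0 fell. The largest slopes in SM were those of UQCRC1, a core subunit of complex III (0.76, SE 0.11), ATP5A1, the alpha subunit of ATP synthase, with 2 of its 3 probes (0.67, SE 0.12, and 0.62, SE 0.10), and COX5B, a subunit of cytochrome c oxidase (0.64, SE 0.11). In LM the 3 were COX7A1, the muscle form of a cytochrome c oxidase subunit (0.39, SE 0.092), CYC1, cytochrome c1 (0.36, SE 0.084), and NDUFA13 of complex I (0.31, SE 0.078). Of 18 probes for genes of the mitochondrial genome, 6 rose in SM, with 4 probes of MT-CO1 from 0.55 to 0.68. Of 12 probes for fatty acid oxidation, 4 rose in SM, namely the acyl-CoA dehydrogenases ACADVL (0.57, SE 0.15), ACADS (0.41, SE 0.077) and ACADL (0.40, SE 0.12) and ETFB, which takes up their electrons (0.54, SE 0.10). ESRRA, a nuclear receptor that drives mitochondrial genes (0.50, SE 0.13), and EPAS1, an oxygen-sensing transcription factor (0.48, SE 0.10), also rose with MB in SM. BNIP3L, a receptor for the removal of mitochondria that the maturing red cell also uses, fell (-0.44, SE 0.12). These came from the lists of oxidative gene regulators (12 probes) and oxygen response (13 probes). Over all probes in SM, 6.30% rose with MB and 1.61% fell. In LM limma called 0 probes of the mitochondrial genome, fatty acid oxidation, oxygen response and regulator lists with MB. Over all probes in LM only 0.728% rose and 0.173% fell, so these counts of 0 are near the background. An unadjusted p under 0.05 was found there for 8, 3, 1 and 2.

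Among the genes of haem and iron handling, 2 of 19 probes rose with MB in SM, beside 6.30% of all probes. Both were of BLVRB, a reductase of biliverdin and flavins that red cells hold in plenty (0.45, SE 0.10, and 0.39, SE 0.10). The 3 probes of HMOX1, the inducible haem oxygenase, had slopes between -0.23 and -0.19 with an adjusted p of at least 0.68. Of 12 probes for red cell and erythroid genes, limma called 0 with MB in either muscle, with 3 in LM and 0 in SM at an unadjusted p under 0.05. Of 22 probes for leucocyte and macrophage genes, 4 fell with MB in SM, namely CD53, a leucocyte tetraspanin (-0.87, SE 0.26), PTPRC, the common leucocyte antigen (-0.87, SE 0.23), NCKAP1L, an actin regulator of blood cells (-0.86, SE 0.22), and ALOX5AP, which activates leukotriene synthesis (-0.51, SE 0.14), and the median slope of the list was -0.50, beside 1.61% of all probes that fell. Under quantile normalization limma called 0 of the 22, with 0 at an unadjusted p under 0.05 and a median slope of -0.17, and over all probes 13 fell in place of 177. Of 20 endothelial probes, 3 rose with MB in SM, beside 6.30% of all probes. They were MMRN2, a matrix protein of endothelium (0.50, SE 0.16), ENG, endoglin (0.41, SE 0.11), and S1PR1, a sphingosine phosphate receptor (0.40, SE 0.091). With MB in LM, limma called 0 haem and 0 endothelial probes, with an unadjusted p under 0.05 for 5 and 1. Over all probes there 0.728% rose and 0.173% fell. The 5 fat cell probes gave 0 calls with either level in either muscle, with 2 at an unadjusted p under 0.05 on HBA2 in LM and 0 otherwise. All calls in this and the foregoing paragraphs have an adjusted p of 0.05 or less in limma's fit over all probes.

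With the mean level of the 3 HBA2 probes, calls were many in SM and few in LM. In SM 1617 of 10983 probes rose (14.7%) and 765 fell (6.97%), and in LM 1 rose (0.0091%) and 2 fell (0.0182%), of which MAGI3, a scaffold protein of cell junctions, fell (-0.29, SE 0.061) and the other two, CO940054.1_59 and BP461295.1_136, have no name here. These 3 are too few for a rule and were named after their values were seen. The index of C-rich probes had an r of 0.63 with the HBA2 level in SM. With the index in the model 97 probes were called in SM, 86 rising and 11 falling, and with BP451506.1_395 alone in place of the mean 299 were called, of which 239 rose (2.18%). In LM CJ016767.1_366 alone gave 513 calls, of which 478 rose (4.35%), whereas CF364593.1_620 and BP451506.1_395 each gave 1. The number of probes that appear to follow HBA2 therefore depended on which of its probes was read.

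Of the 12 red cell and erythroid probes, 3 rose with the HBA2 level in SM, beside 14.7% of all probes. They were NFE2, an erythroid and megakaryocyte transcription factor (0.28, SE 0.10), KLF1, the erythroid factor that switches on globin genes (0.17, SE 0.042), and GYPC, a glycoprotein of the red cell membrane (0.17, SE 0.061). SPTB, the spectrin of the red cell skeleton, which muscle also expresses, had a slope of 0.22 (SE 0.085, adjusted p = 0.057). All 12 slopes were above 0, with a median of 0.059 against 0.014 over all probes. With MB in the same model 5 of the 12 were called. With the C-rich index in the model limma called 0 of the 12 (1 with an unadjusted p under 0.05), and with BP451506.1_395 alone 0 (3). Over all 10983 probes these 3 fits called 1650, 97 and 299, in the same order. In LM, where 3 of all probes were called, 0 of the 12 were called, with 0 unadjusted, and 7 slopes were above 0.

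Probes of the respiratory chain were also called with HBA2 in SM. Of the 38 probes, 23 rose with HBA2, beside 14.7% of all probes. They were led by COX4I2, the hypoxia-responsive form of a cytochrome c oxidase subunit (0.42, SE 0.064). Next were NDUFA3 (0.37, SE 0.056) and NDUFA10 (0.35, SE 0.064) of complex I and COX5B (0.26, SE 0.053). With BP451506.1_395 alone 15 were called, beside 299 of all 10983 probes, and with the C-rich index 13, beside 97. With MB and HBA2 in 1 model, 22 were called with MB and 9 with HBA2. Of all 10983 probes, 321 rose with MB in that model, and 1134 rose and 516 fell with HBA2. Of the 9 slow fibre probes, limma called 0 with HBA2 in SM, with 4 at an unadjusted p under 0.05 and a median slope of -0.00058, and in the joint model 4 rose with MB and 3 fell with HBA2. Of the 18 mitochondrial genome probes 6 rose with HBA2, beside 14.7% of all probes, led by MT-ND4 (0.44, SE 0.15) and MT-ND3 (0.36, SE 0.11). In the joint model 0 of the 18 rose with HBA2 and 2 rose with MB.

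Genes of the vessel wall were called with HBA2 in SM, where 14.7% of all probes rose and 6.97% fell. The shares of the leucocyte, haem, fatty acid, fast glycolytic and oxygen response lists below are near that background. Of 10 probes for mural and smooth muscle cells 4 rose, 2 of CNN1, calponin (0.23, SE 0.069, and 0.22, SE 0.072), and 2 of ACTA2, smooth muscle actin (0.15, SE 0.052, and 0.14, SE 0.034). Of 20 endothelial probes 5 rose, led by DLL4, a Notch ligand of arterial endothelium (0.50, SE 0.093), ENG (0.17, SE 0.052), SOX18 (0.17, SE 0.050) and S1PR1 (0.14, SE 0.045). Of 22 leucocyte and macrophage probes 3 rose, SPI1, the myeloid factor PU.1 (0.65, SE 0.13), IL2RG, the common gamma chain of cytokine receptors (0.30, SE 0.059), and PTPN6, a phosphatase of blood cells (0.29, SE 0.054). The 4 of this list that fell with MB were not called with HBA2. Over all probes, 445 of the 869 called with MB in SM (51.2%) were also called with HBA2. With 4 probes, whose calls with MB were lost under quantile normalization, no contrast is read. Of the 13 oxygen response probes, NDUFA4L2, a target of hypoxia-inducible factor (0.40, SE 0.061), and VEGFB (0.16, SE 0.056) rose, and BNIP3L fell (-0.19, SE 0.060). With HBA2 in SM, 2 of 12 fatty acid oxidation probes rose, ETFB (0.20, SE 0.051) and ACADS (0.15, SE 0.038), and CPT1B, the muscle enzyme of fatty acid import into mitochondria, fell (-0.33, SE 0.12). Of 11 fast glycolytic probes, CKM, muscle creatine kinase (0.15, SE 0.049), and MYH1, a fast myosin (0.13, SE 0.030), rose and PPP1R3A, a glycogen-targeting phosphatase subunit, fell (-0.36, SE 0.12), and of 12 probes for oxidative gene regulators limma called 0, with 0 at an unadjusted p under 0.05. Among the haem and iron genes PPOX, an enzyme of haem synthesis (0.15, SE 0.050), SLC25A39, a mitochondrial carrier (0.13, SE 0.050), and FTH1, the ferritin heavy chain (0.12, SE 0.042), rose, which is 3 of 19. Over all 10983 probes in SM, limma called 97 with the C-rich index in the model and 299 with BP451506.1_395 alone. Counts of 0 in lists this short are near those shares, and no loss particular to a list is read from them. With the C-rich index in the model, limma called 0 probes of the mural, endothelial, leucocyte and haem lists, with an unadjusted p under 0.05 for 2, 4, 2 and 4, and with BP451506.1_395 alone it called 0, with 4, 7, 8 and 6. With the index it also called 0 of the fast glycolytic, oxygen response and mitochondrial genome lists, with 0, 5 and 7 unadjusted, and 2 rising and 0 falling fatty acid oxidation probes. With BP451506.1_395 alone it called 0 fast glycolytic probes (3 unadjusted), 1 of the oxygen response, which fell, 1 of the mitochondrial genome, which rose, and 2 of fatty acid oxidation, which rose.

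**Figure D5:**
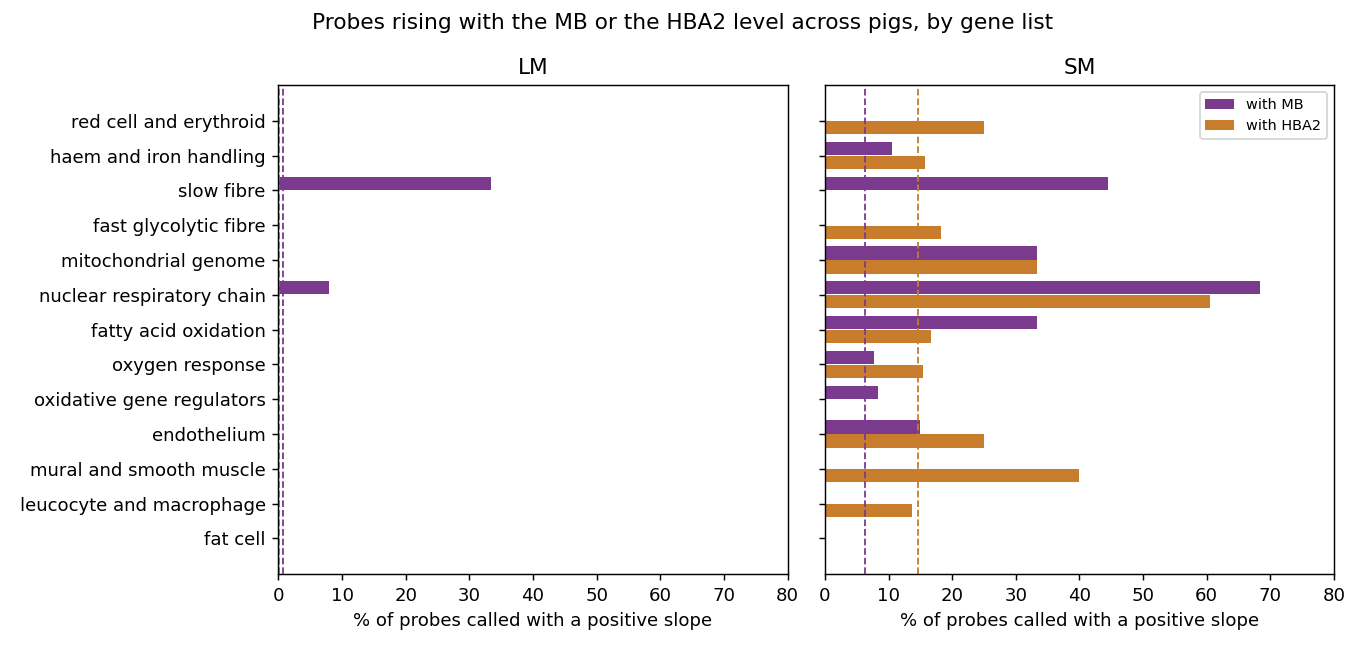
Share of the probes of each gene list called with a positive slope (x axis, %) on the MB level (purple) or the HBA2 level (orange) across pigs, in LM (left) and SM (right). Dashed lines mark the share over all 10983 probes (6.30% for MB and 14.7% for HBA2 in SM); slow fibre probes are called with MB in both muscles and with HBA2 in neither.

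Calls in a muscle rested on the level in that muscle. When probes were fitted on the level in the other muscle of the same pig, limma called 0 probes in all 4 fits, with an unadjusted p under 0.05 for 397 probes in LM and 896 in SM on MB and for 367 in LM and 900.0 in SM on HBA2, of 10983. The lists and all counts of probes compare transcripts read on the same array as the level, so anything that moves many probes of an array together enters both sides.

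Among the 3963 other named probes, those most like MB across pigs, by r with slide means subtracted and averaged over both muscles, were RILP, an effector of lysosome transport, with 2 probes (0.64 and 0.57), OPLAH, an oxoprolinase (0.62), CYC1 (0.60), MYBPC1, slow myosin-binding protein C (0.58), NDUFA13 (0.58), HSPB6, a small heat shock protein of muscle (0.57), TNNI1 (0.57), PLCH2, a phospholipase C (0.57), and COX7A1 (0.56). Those with the lowest r were UBE4A, a ubiquitin ligase (-0.44), 2 probes of NAP1L1, a histone chaperone (-0.42 and -0.41), EIF3E, a translation factor (-0.40), and DAAM1, an actin regulator (-0.38). The median over named probes was -0.012. For the HBA2 level, the most alike were GFAP, the filament protein of astrocytes (0.47), NDUFA3 (0.47), IDH3G, a subunit of mitochondrial isocitrate dehydrogenase (0.45), TP53INP2, an autophagy factor (0.45), OS9, a lectin of the endoplasmic reticulum (0.45), COX4I2 (0.44), CXXC1, a protein that binds unmethylated CpG (0.44), KIAA0195 (0.44), PRKCA, protein kinase C alpha (0.44), and CDKN1B, a cell cycle inhibitor (0.44), against a median of 0.0091. The least alike were FUCA2, a fucosidase (-0.37), RAB1A, a GTPase of vesicle traffic (-0.36), CPT1B (-0.36), ABCA6 (-0.35) and CMYA5, a large protein of the muscle fibre (-0.34). The highest r was 0.64 for MB and 0.47 for HBA2. The red cell and erythroid list has only 12 probes, so nothing is read from its absence among the 10 most like HBA2. The HBA2 level also had an r of 0.63 with the C-rich index in SM, which was not taken out of this ranking. These r share array and slide and are given as a description.

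Markers of the cell types in the samples moved with the muscle too. The 10 probes of the skeletal fibre markers CKM, MYH1, MYL1, TTN and NEB were above background on every array, with 9 higher in LM and 1 in SM, beside 35.7% of all probes higher in LM and 47.7% in SM. Of the 3 red cell markers beside HBA2, 1 was higher in LM and 2 in SM, and their summed signal ran from 6585 to 22065 in LM and from 4117 to 17614 in SM. All 5 endothelial probes, all 6 of smooth muscle, all 4 of leucocytes, all 3 of macrophages and all 3 of fat cells were higher in SM. The mean level of the 3 red cell markers had an r with the HBA2 level of 0.22 in LM and 0.34 in SM. With BP451506.1_395 alone r was 0.18 and 0.22. The part of these cells in the levels of HBA2 was not tested. Over the whole lists, 7 of 12 red cell and erythroid probes were higher in SM and 4 in LM, 14 of 19 haem and iron probes in SM and 4 in LM, 6 of 9 slow fibre probes in SM and 2 in LM, and 9 of 11 fast glycolytic probes in LM and 2 in SM. All names come from the study's own list of differing probes, so these counts describe the lists and nothing more.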

How the data were processed

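The files hold, for each spot, the Cy3 signal intensity which the authors' Feature Extraction software read (in 1 version for the SM arrays and 46 LM arrays, in an earlier one for the other 44 LM arrays), corrected for background and not scaled between arrays. The deposited series table holds the natural log of that intensity minus a constant per array. Its log values were an alternative. Control spots were left out. The intensity was put on the log2 scale, probes with over 50% failed spots in either muscle were removed, the median of each array was subtracted, failed spots were set to missing and values over 3 SD away from their probe's mean were dropped, which left 10987 of 15198 probes. Probes were named by the study's lists alone, which name 3967 of them here, and 1 of these lists was a shortened copy.

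Muscles were compared, and probes fitted on the MB or HBA2 level, with limma 3.58.1 in R 4.3.3 (statmod 1.5.0) and Benjamini-Hochberg adjustment over all probes. The fits were tested on simulated data with independent noise for each probe and array. That simulation cannot show how a shared movement of the probes of an array changes the calls. Sex, slaughter batch and carcass weight, terms of the study's model, are not in the labels and were left out. Correlations had 100000 two-sided permutations of the pigs (Python 3.11.15, numpy 2.4.6), within slides where slide means were subtracted. The muscles were paired by the pig numbers in the labels. The 13 gene lists and the members were chosen with earlier results of these data known. The genes named are the members, up to 4 called probes with the largest slope per list, level and muscle, and the 10 named probes most like and 5 least like each level. The count of usable arrays limits the precision of each mean. The search for unnamed globin probes by protein was not run. The alternatives are those listed under how the results depend on the processing.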

Additional observations from a re-analysis of the deposited data

Results flagged for a closer look

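The near-identical HBA2 probes CJ016767.1_366 and CF364593.1_620 were flagged because their correlation across pigs differed between the muscles. Over the 76 pigs with all values, r was 0.84 in LM and 0.95 in SM, and a permutation test that exchanged the muscles within pigs gave an adjusted p of 0.00162 over 6 pairs. With slide means subtracted r was 0.87 in LM and 0.94 in SM, and with non-uniform spots kept 0.92 and 0.95. With the C-rich index regressed out it was 0.94 and 0.95. The parts of the index and of the non-uniform spots in this difference were not tested.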

How the results depend on the processing

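The muscle difference of the 4 probes was lower in LM under all alternatives run, and calls were lost in the 4 cases given in the report: with no centring for MB (-0.035) and HBA2 BP451506.1_395 (-0.13), and with the C-rich index for CJ016767.1_366 (-0.16) and BP451506.1_395 (-0.27). With the pig as a replicate block the differences were -0.33, -1.22, -1.07 and -0.46 and the pairing changed no call. Random blocks of slides or of scan days, and LM arrays of either software version alone, changed no call. With scan days as blocks, limma's adjusted p was 8.51e-06 for MB and 0.017 for BP451506.1_395. With the C-rich index and the block together all 4 were called. The alternatives with no centring, with index and block, with the second software version and with BP451506.1_395 and the index were chosen after seeing the data.

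Among the correlations within a muscle, those of MB with HBA2 CJ016767.1_366 and CF364593.1_620 in LM were 0.55 and 0.55 with failed spots kept, the second was 0.26 with no centring, and with normexp those with the 3 HBA2 probes were -0.13, -0.028 and -0.0031. Under quantile normalization the first was -0.051 in LM, and those with the first 2 probes in SM were 0.068 and 0.15. CJ016767.1_366 with BP451506.1_395 in LM was 0.13 with failed spots kept. Between the muscles, MB passed without the 2 farthest pigs (0.30), and with the index regressed out CF364593.1_620, BP451506.1_395 and the HBA2 level were -0.040, -0.0077 and -0.078. The cause of these changes was not tested. Direction and side of the threshold stayed as reported in 60 recalculated muscle differences, 134 correlations within a muscle and 56 between the muscles, over normexp, quantile normalization, the 75th percentile, failed, outlying or saturated spots kept, no filter on dim probes, no centring, slide or scan day means subtracted, the farthest pigs left out and the C-rich index, and for the muscle difference also the deposited table.

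Probes called with MB in LM numbered 166 under quantile normalization, 481 with normexp, 418 with failed spots kept, 260.0 with outlying values kept, 296 with no slide term and 0 with the level of the other muscle. In SM they numbered 454 under quantile normalization, 1713 with normexp, 380.0 with HBA2 in the model, 503 without the 2 farthest arrays and 0 with the level of the other muscle. Probes called with HBA2 in LM numbered 705 with failed spots kept, 1058 with no slide term, 513 with CJ016767.1_366 alone, 5 without the 2 farthest arrays, 0 with the level of the other muscle, and 1 with each of the 75th percentile, normexp, outlying values kept, CF364593.1_620 alone, BP451506.1_395 alone and that probe with the index. In SM they numbered 1547 with normexp, 97 with the index, 299 with BP451506.1_395 alone, 100 with that probe and the index and 0 with the level of the other muscle. For each count of 0, limma gave 367 to 900.0 probes with an unadjusted p under 0.05. The cause was not tested.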

Other observations

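Outside the naming rule, and chosen after their values were seen, the named probes with the smallest p were LDHB, the lactate dehydrogenase subunit of oxidative tissue, which rose with MB in LM (slope 0.66, SE 0.10), and ATP5D, a subunit of ATP synthase, which rose with the HBA2 level in SM (0.26, SE 0.036) and also with HBA2 BP451506.1_395 alone (0.17, SE 0.033). In SM, 445 probes were called with both MB and HBA2, all with the same sign, which is 51.2% of those called with MB and 18.7% of those called with HBA2. Of all 10983 probes, 869 were called with MB and 2382 with HBA2. The levels come from the same arrays and had an r of 0.47, so the overlap and the shared sign are no separate result. With both levels in 1 model, 380 probes were called with MB and 1650 with HBA2.

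Among named probes, the 10 most like HBA2 BP451506.1_395 alone were led by ACY1, an aminoacylase, with 2 probes (r of 0.40 and 0.37), and CYC1 (0.38). The others were ATP6V1F (0.37), TRAPPC1 (0.37), NDUFA13 (0.37), ORAI1 (0.36), FARP1 (0.36), CA9, a hypoxia-inducible carbonic anhydrase (0.36), and MDH2 (0.36). None of these 10 was among the 10 most like the mean HBA2 level, so this ranking too depended on the probe read. CYC1 and NDUFA13 were also among those most like MB.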
